A study of Mus musculus with 30 samples.

Results

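The genes Pou5f1, Sox2, Nanog, Utf1, Foxd3, Sall2, Sall4, Zic2 and Zfp462 encode transcription factors and chromatin-bound regulators of pluripotent cells in the primed state, the state of the epiblast shortly before gastrulation. They were taken by name, 9 of the 29555 genes counted, and all 9 had a row in both gene tables. Their transcripts were followed by RNA-seq and the chromatin around them by ATAC-seq, which counts DNA fragments released by a transposase at open sites, in mouse epiblast stem cells (EpiSCs) and in definitive endoderm (DE) made from them. The study asked how both readouts change when EpiSCs become DE, and how EpiSCs of several genetic backgrounds compare.

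The B6 EpiSCs were of strain C57BL/6, at passages 5 to 10, with no treatment, and gave 5 RNA and 4 ATAC libraries. They were cultured on feeder cells with Fgf2, ActivinA and the Wnt inhibitor NVP-TNKS656, and were lifted with collagenase so that feeders stayed behind. The B6 DE cells, with 4 RNA and 4 ATAC libraries, came from C57BL/6 EpiSCs through CHIR99201 with ActivinA for 16 h and ActivinA with LDN193189 for 24 h, and were sorted magnetically for CXCR4+ cells. The labels also give a total of 46 h, which is more than the sum of these steps. EpiSCs of PWK/PhJ, an inbred strain of wild origin, gave 3 RNA and 2 ATAC libraries, EpiSCs of the B6.129 F1 cross gave 3 RNA libraries, and DBA/2J EpiSCs gave 1 library of each assay. No label names an engineered allele in any group. The sample titles call the libraries of a group biological replicates (DBA ATAC-seq excepted), without saying whether a replicate is a separate line, animal or culture. The p-values measure the spread between these replicates.

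In the primed state, Oct4 (the product of Pou5f1) and Sox2 bind DNA side by side on a joint element, and Activin and Fgf signalling keep their program running. Nanog, a homeodomain protein, works with both, while spalt, Zic and forkhead proteins bind many of the enhancers that are active in this state. On differentiation to endoderm the program is replaced by one led by Sox17, Gata and Foxa factors.

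RefSeq (GRCm38.p6) held promoter windows, from 250 bases before to 50 after a start, for 6 of the 9 genes. They were searched on both strands for the octamer ATGCAAAT, its core ATGCAAA, the Sox letters ACAAAG and CATTGT, and the joint Oct-Sox element, which is TTGT followed after 1 base of any kind by ATGCAAA and so contains the core. Among the 6 genes the joint element was found in the promoter of Nanog alone, and 0.0365% of 32851 promoter windows held it. Of all windows, 1.74% held the octamer, 4.63% the core, 18.7% ACAAAG and 12.6% CATTGT. The windows of Nanog and Sox2 are shown because each has such letters inside an ATAC peak that lost accessibility in DE, and that of Foxd3 because its promoter peak was also lower in DE (log2 change -2.66) while the window held no match. Capitals mark the matched letters, and positions count from the start of transcription.
Nanog, chr6:122707239-122707538, + strand: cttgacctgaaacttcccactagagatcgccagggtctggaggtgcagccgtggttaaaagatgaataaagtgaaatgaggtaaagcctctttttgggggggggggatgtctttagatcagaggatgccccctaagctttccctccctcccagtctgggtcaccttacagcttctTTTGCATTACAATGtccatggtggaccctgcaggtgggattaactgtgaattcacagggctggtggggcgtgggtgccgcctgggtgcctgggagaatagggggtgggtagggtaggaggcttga
Sox2, chr3:34649745-34650044, + strand: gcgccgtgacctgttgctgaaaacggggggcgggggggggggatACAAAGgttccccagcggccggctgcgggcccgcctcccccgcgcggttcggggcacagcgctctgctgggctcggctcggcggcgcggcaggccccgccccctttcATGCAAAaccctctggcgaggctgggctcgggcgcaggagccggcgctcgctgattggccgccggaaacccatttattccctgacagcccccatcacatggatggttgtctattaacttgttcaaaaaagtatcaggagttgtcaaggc
Foxd3, chr4:99656049-99656348, + strand: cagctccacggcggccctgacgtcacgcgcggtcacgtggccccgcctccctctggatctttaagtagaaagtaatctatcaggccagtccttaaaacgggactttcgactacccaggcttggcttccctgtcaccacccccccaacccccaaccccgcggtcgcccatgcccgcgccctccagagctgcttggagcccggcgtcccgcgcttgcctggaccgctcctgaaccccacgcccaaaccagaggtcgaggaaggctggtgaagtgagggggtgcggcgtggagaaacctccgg
In the Nanog window the capitals run from -75 to -62 and join the element, read on the other strand as TTTGCATTACAA, to ACAATG, the reverse of CATTGT. In the Sox2 window ATGCAAA lay at -99 to -93, inside a peak, and ACAAAG at -206 to -201, outside any peak. In Pou5f1, the window at a downstream start held ACAATG at -158 to -153 outside any peak, and the window at the main start held none of the letters, as did those of Utf1 and Sall2. A match of letters describes the sequence and is not a site shown to be bound.

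The RNA libraries held 22829536 to 66563933 counts in the table with DE and 24529054 to 29947841 in the EpiSC table, and the ATAC libraries held 3751526 to 9571127 counts in peaks. Levels below are in counts per 1000000 counts of the scaled library (CPM). The labels were set beside marker genes. These lists were chosen with earlier results of these data known, so they are no independent check of the labels. Of all genes tested, 31.5% were higher in DE and 30.6% lower. Of 17 definitive endoderm genes, 15 were higher in DE and 0 lower, and their summed level was 779 to 1691 CPM in B6 EpiSCs and 9986 to 21959 CPM in DE. Cxcr4 is among the 15, and since DE cells were sorted for its product, its rise is no separate check of the label. Of 13 naive-state genes, the 2 at 0 in all B6 EpiSC libraries were Zfp42 and Tcl1, named after their values were seen. The 13 genes summed to 42.1 to 96.4 CPM in B6 EpiSCs and 27.5 to 45.1 CPM in DE. Klf5, also named after its value was seen, was at 15.4 to 54.3 CPM in B6 EpiSCs. Genes of feeder fibroblasts were present despite the lifting step, with a summed level over 15 genes of 709 to 6572 CPM in B6 EpiSCs and 328 to 603 CPM in DE. None of the 15 was at 0 throughout either group. Of 12 primitive streak and mesoderm genes, 8 were tested, 4 were higher and 3 lower in DE (median log2 change 0.434). The neuroectoderm list had 6 of 10 genes tested, 1 higher and 3 lower (median -3.01), and the visceral endoderm list 6 of 11, 2 higher and 1 lower (median -0.408). In bulk RNA, fewer cells of a type and less RNA per cell cannot be told apart.

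Each of the 9 genes differed between B6 DE and B6 EpiSCs, with no overlap of the libraries. The transcripts of Pou5f1, Sox2, Nanog, Utf1, Foxd3, Sall2, Zic2 and Zfp462 fell, from 8.32-fold for Nanog to 263-fold for Foxd3 in the group means, and that of Sall4 rose 3.81-fold. In this comparison 62% of the 14085 genes tested were called, 30.6% lower and 31.5% higher, and 55.6% had groups without overlap. A call means a Benjamini-Hochberg adjusted p below 0.05 in the quasi-likelihood test of edgeR. Genes as a whole had a median log2 change of -0.0145. Of 15 feeder genes 12 were also lower in DE and 0 higher, and their part in the falls was not tested.

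Pou5f1 (ENSMUSG00000024406, chr17:35506032-35510777) encodes the POU factor without which no pluripotent state is kept. Its level was 982, 1331, 1036, 985 and 1303 CPM in B6 EpiSC replicates 1, 2, 4, 44 and 51. In DE replicates 2, 4, 44 and 51 it was 37.8, 6.34, 2.46 and 4.79 CPM. Every EpiSC library was close to the others, while DE replicate 2 stood well above the other DE libraries and still far below any EpiSC library. Its log2 change was -6.47 (SE 0.85, edgeR adjusted p = 9.65e-05), an 87.7-fold lower mean. Without DE replicate 2 the mean was 249-fold lower and the log2 change -7.93.

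Sox2 (ENSMUSG00000074637, chr3:34649995-34652461), the HMG-box partner of Oct4, was at 42.0, 82.6, 35.3, 66.2 and 101 CPM in the EpiSC replicates in the same order. In DE it was at 2.70, 0.862, 0.196 and 0.121 CPM, the last values resting on 5 and 8 counts. DE replicate 2 was again the highest of its group. For Sox2 the log2 change was -6.21 (SE 0.87, edgeR adjusted p = 0.000146) and -7.28 without DE replicate 2, where the fold of the means went from 67.5 to 166.

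Nanog (ENSMUSG00000012396, chr6:122707489-122714633) showed the smallest fall of the 8 genes that fell. It was at 72.7, 130, 40.7, 87.6 and 162 CPM in EpiSCs and at 12.4, 8.89, 3.83 and 22.3 CPM in DE. Here the highest DE library was replicate 51, and the gap between the groups was narrow, since the lowest EpiSC library had 40.7 CPM. In log2 terms Nanog changed by -3.05 (SE 0.54, edgeR adjusted p = 0.000684), and DE kept 12% of the EpiSC mean, compared with 1.14% for Pou5f1 and 1.48% for Sox2.

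Utf1 (ENSMUSG00000047751, chr7:139943856-139945112), a chromatin-bound protein of pluripotent cells, was at 89.1, 214, 216, 208 and 202 CPM in EpiSCs. In DE its level was 27.1, 7.12, 10.7 and 5.26 CPM. EpiSC replicate 1 was low and DE replicate 2 high, so that the libraries that stood apart lay nearest to the other group. In log2 terms Utf1 changed by -3.90 (SE 0.52, edgeR adjusted p = 0.000107), and the fold of the means was 14.8, or 24.1 without DE replicate 2.

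Foxd3 (ENSMUSG00000067261, chr4:99656299-99658671), a forkhead factor needed by the epiblast and later by neural crest, reached 12, 33.9, 18.7, 27.4 and 41.9 CPM in EpiSCs. It was at 0 in DE replicates 4, 44 and 51 and at 0.407 CPM, or 8 counts, in replicate 2. The DE signal thus came from 1 library. The edgeR log2 change was -8.77 (SE 1.13, adjusted p = 7.74e-05). Against a floor of 3 counts per library, or 0.0709 CPM, the mean of the other 3 DE libraries was at least 378-fold lower than in EpiSCs.

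The spalt genes moved apart. Sall2 (ENSMUSG00000049532, chr14:52311177-52328670) was at 61.7, 124, 54.6, 86.5 and 102 CPM in EpiSCs and at 6.46, 10.5, 6.96 and 12.8 CPM in DE. The DE libraries lay within a 1.99-fold range, and replicate 2 was the lowest of them. Sall2 had a log2 value of -3.21 (its SE was 0.32, edgeR adjusted p = 1.61e-05).

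Sall4 (ENSMUSG00000027547, chr2:168748332-168767201), whose product binds with Oct4 in pluripotent cells, was the exception. Its level was 234, 293, 191, 211 and 291 CPM in EpiSCs and 548, 1247, 779 and 1144 CPM in DE. Each DE library lay above each EpiSC library, with DE replicate 2 the lowest of its group. The log2 change was 1.93 (SE 0.25, edgeR adjusted p = 8.12e-05), and 2.12 without that library. The label of the gene set as one of the primed state thus did not match the direction of Sall4, which was more abundant in DE.

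Zic2 (ENSMUSG00000061524, chr14:122475384-122480328), a zinc-finger factor of primed cells and of the neural plate, was at 116, 173, 113, 134 and 167 CPM in EpiSCs. The DE libraries had 7.63, 11.8, 7.74 and 12.2 CPM. Both groups were tight, and the log2 change was -3.83 (SE 0.24, edgeR adjusted p = 1.13e-06), a 14.3-fold lower mean.

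Zfp462 (ENSMUSG00000060206, chr4:54944491-55083563), a zinc-finger protein linked to the silencing of enhancers of other lineages, had 253, 231, 258, 253 and 185 CPM in EpiSCs and 5.19, 6.42, 3.44 and 4.93 CPM in DE. No library stood apart in either group. Its log2 change of -5.56 had the lowest adjusted p of the 9 genes (SE 0.23, edgeR adjusted p = 2.99e-07), and the mean fell 47.2-fold. In DE replicate 2, where Pou5f1, Sox2, Utf1 and Foxd3 were highest, Zfp462, Sall2, Zic2 and Nanog lay within the range of the other DE libraries or below it. The summed endoderm markers of that library, 15236 CPM, also lay inside the range of the others, and its feeder sum, 603 CPM, was the highest in DE. Their part in the levels of that library was not tested.

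**Figure D1:**
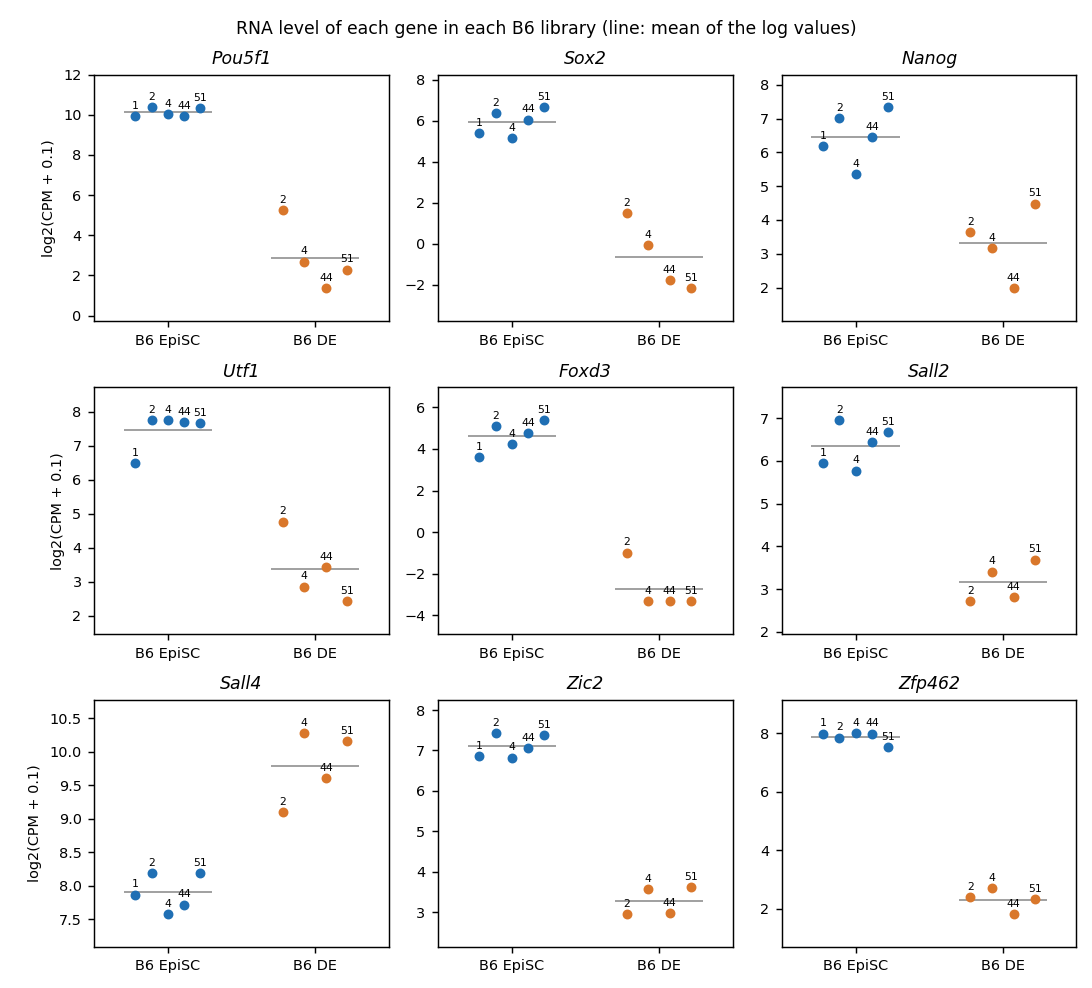
RNA level of each gene as log2(CPM + 0.1) in the B6 EpiSC (blue) and B6 DE (orange) libraries, each point a library with its replicate number and each line the mean of the log values. The groups are apart for every gene, Sall4 is the gene with the higher values in DE, and DE replicate 2 is the highest DE library for Pou5f1, Sox2, Utf1 and Foxd3.

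**Figure D2:**
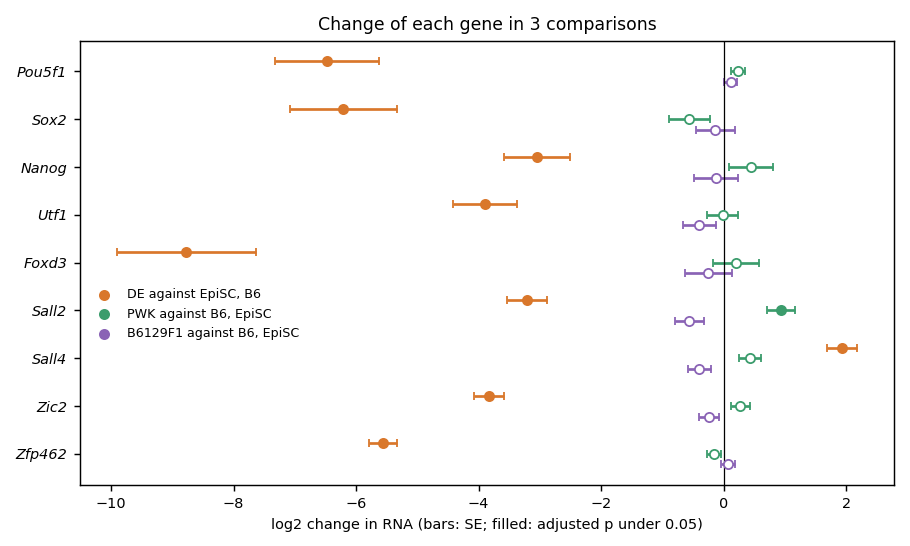
Log2 change of each gene with its SE in DE against EpiSCs of B6 (orange), PWK against B6 EpiSCs (green) and B6129F1 against B6 EpiSCs (purple), filled where the adjusted p was under 0.05. The differentiation changes reach -8.77, whereas among EpiSCs the single filled point is Sall2 in PWK at 0.94.

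Other genes of the primed network did not share a single direction. In a list of 30 partner genes, 28 were tested, 13 were lower and 6 higher in DE, and the median log2 change was -0.851. Over all genes tested, 30.6% were lower and 31.5% higher. The Nodal inhibitors Lefty1 and Lefty2 rose most, with log2 changes of 6.62 for Lefty1 (SE 0.26, edgeR adjusted p = 2.99e-07) and 6.23 for Lefty2 (SE 0.60, edgeR adjusted p = 1.34e-05). Their transcripts are near copies of each other, so counts may be split between them. Lefty1 was at 60.9 to 99.0 CPM in EpiSCs and at 5861 to 11511 CPM in DE. Fgf4, an Fgf ligand controlled by Oct4 and Sox2 in pluripotent cells, fell by 8.09 (SE 1.17, edgeR adjusted p = 0.000164), from 10.5 to 27.3 CPM to at most 0.407 CPM. Dppa2 was listed at 0 in every DE library and at a mean of 0.806 CPM in EpiSCs. Otx2 and Fgf5, named here after their values were seen because both mark the primed state, rose by 1.83 and 2.91 on the log2 scale (SE 0.17 for both, edgeR adjusted p = 1.05e-05 and 9.66e-07). Otx2 also stands on the definitive endoderm list above and is counted there among the genes higher in DE. Fgf5 was at 149 to 256 CPM in EpiSCs and at 1448 to 1720 CPM in DE.

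Close relatives of the 9 genes were split as well, as were genes in general, with 30.6% lower and 31.5% higher. Of 21 genes of the Sox, Pou, Zic, Sall and Foxd families, 14 were tested, 5 were lower and 4 higher, with a median of -0.663. Sox21, a SoxB gene related to Sox2, rose from 0.222 to 3.43 CPM up to 37.1 to 58.4 CPM (log2 change 4.79, SE 0.57, edgeR adjusted p = 5.01e-05). Pou3f1, a POU factor of the late epiblast and neural cells that stands on both lists, fell by 3.88 (SE 0.37, edgeR adjusted p = 1.18e-05), and Sox11 fell by 1.94 (SE 0.15, edgeR adjusted p = 3.67e-06). Sall1, named after its value was seen, was at 120 to 204 CPM in EpiSCs and 81.2 to 298 CPM in DE (log2 change 0.19, SE 0.32, edgeR adjusted p = 0.627). Of the naive-state list, 7 of 13 genes were tested, 1 was lower, which was Fgf4, and 0 higher.

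Across all 16 RNA libraries the genes whose log2(CPM + 1) followed each member most closely were found among 9085 genes with a mean of at least 10 CPM. Pearson's r was 0.997 for Pou5f1 with Ctdsp1 and 0.999 for Zfp462 with Tcf20. It was 0.990 for Sox2 with Pabpc1, 0.986 for Nanog with Axin2, 0.985 for Utf1 with Mta1 and 0.990 for Foxd3 with Lmtk3. For Sall2 it was 0.989 with Tnrc6c, for Zic2 0.995 with Slitrk5, and for Sall4 0.978 with Kazn. The runners-up were Anp32a, Pum2, Abcf1, Epc2, Bak1, Zscan25, Smg6, Rragb and Ccnjl in the same order of members. These points share the same libraries, and the 12 EpiSC and 4 DE libraries form separate groups, so the values describe a shared split.

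Among EpiSCs the genes differed in how much they varied. The highest B6 EpiSC library exceeded the lowest 1.36-fold for Pou5f1, 1.40-fold for Zfp462, 1.54-fold for Sall4 and Zic2, 2.27-fold for Sall2, 2.42-fold for Utf1, 2.87-fold for Sox2, 3.49-fold for Foxd3 and 3.99-fold for Nanog. Over 8299 genes with at least 10 CPM in every B6 EpiSC library the median of this ratio was 1.35 and the 90th percentile 1.97. Pou5f1 and Zfp462 were thus near the middle of all genes, and Sall2, Utf1, Sox2, Foxd3 and Nanog above the 90th percentile. B6 EpiSC replicate 51 had the highest Sox2, Nanog and Foxd3 and also the highest sum of feeder genes, 6572 CPM. Its Zfp462, at 185 CPM, was the lowest. Replicate 1, with the lowest feeder sum of 709 CPM, had the lowest Utf1 and Foxd3. Its Pou5f1 of 982 CPM was lowest by a small margin, with 985 CPM in replicate 44. Replicate 1 also had the highest streak and mesoderm sum, 665 CPM, compared with 294 to 406 CPM in the other B6 EpiSC libraries. Replicate 4, with an intermediate feeder sum of 2025 CPM, had the lowest Sox2, Nanog, Sall2, Sall4 and Zic2, and the highest sums of neuroectoderm genes, 818 CPM, and naive genes, 96.4 CPM. The part of these other transcripts in the spread was not tested.

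PWK EpiSCs differed from B6 EpiSCs in 1 of the 9 genes, Sall2, which was higher. In that comparison 26.5% of 14822 genes were called, 12% higher and 14.5% lower, and the groups did not overlap for 32.1%. Sall2 was at 160, 176 and 174 CPM in the PWK libraries, and the B6 libraries ran from 55.5 to 129 CPM with a median of 89.4 CPM. Every PWK library lay above every B6 library. Sall2 was higher by 0.94 on a log2 basis (SE 0.23, edgeR adjusted p = 0.0124), with 170 CPM ± 8.43 (SD, n = 3) against 88.7 CPM ± 30 (SD, n = 5). Leaving out each library in turn gave 0.81 to 1.11, with adjusted p from 0.00296 to 0.0447.

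Sall4 was also without overlap, at 318, 339 and 367 CPM in PWK and 194 to 305 CPM in B6, but its log2 change of 0.43 (SE 0.18) had an edgeR adjusted p of 0.104. DESeq2 called it, with 0.46 and an adjusted p of 0.0458. For the other 7 genes the groups overlapped and the log2 changes ran from -0.56 for Sox2 (SE 0.33, edgeR adjusted p = 0.229) to 0.44 for Nanog (SE 0.36, edgeR adjusted p = 0.381). Pou5f1 was at 1308 to 1481 CPM in PWK and 1019 to 1384 CPM in B6. Sox2 had a narrow range of 45.0 to 47.3 CPM in PWK inside the B6 range of 35.9 to 105 CPM. The summed feeder genes were at 6104 to 7610 CPM in PWK and 738 to 6824 CPM in B6, with 0 of 15 genes called. Of the neuroectoderm genes 4 of 6 tested were lower in PWK and 0 higher, with sums of 289 to 306 CPM against 380 to 832 CPM in B6. The definitive endoderm sums were 434 to 603 CPM in PWK and 811 to 1749 CPM in B6, with 1 of 16 genes lower and 0 higher. The part of these lists in the difference of Sall2 was not tested, nor was that of sequence differences between PWK and the reference build. Among the 28 tested partner genes, 3 were higher and 5 lower in PWK, and among 16 tested relatives 2 were higher and 1 lower.

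EpiSCs of the B6.129 F1 cross, B6129F1 below, showed no called difference from B6 for any of the 9 genes in edgeR, where 2.84% of genes were called, 1.5% lower and 1.34% higher, and 14.5% had no overlap. At an unadjusted p under 0.05 there was 1 gene, Sall2, with 62.4, 65.9 and 52.8 CPM, a log2 change of -0.56 with SE 0.24 and an edgeR adjusted p of 0.184. DESeq2 called none of them either. Without B6 EpiSC replicate 1, the library with low Utf1, Utf1 was called lower with a log2 change of -0.53 (edgeR adjusted p = 0.0424). With all libraries the value was -0.40 both for Utf1 (SE 0.27, edgeR adjusted p = 0.4) and for Sall4 (SE 0.19, edgeR adjusted p = 0.223), and the other 6 members lay between -0.25 and 0.11.

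Between PWK and B6129F1 the spalt genes and Zic2 differed, all higher in PWK, where 40% of genes were called, 20.7% higher and 19.4% lower, and 62.5% had no overlap. The log2 values were 1.49 for Sall2 (SE 0.27, edgeR adjusted p = 0.00182), 0.83 for Sall4 (SE 0.21, edgeR adjusted p = 0.0101) and 0.51 for Zic2 (SE 0.17, edgeR adjusted p = 0.0396). Sall4 was at 159, 254 and 161 CPM in B6129F1, and Zic2 at 113, 144 and 112 CPM compared with 166, 180 and 178 CPM in PWK. The call of Zic2 was lost without any one of 5 of the 6 libraries, all but B6129F1 replicate 9, with adjusted p up to 0.13. Nanog, at 75.5 to 109 CPM in B6129F1 and 130 to 154 CPM in PWK, did not overlap either but had a log2 change of 0.58 and an edgeR adjusted p of 0.281. With only these groups in the fit its adjusted p was 0.00756. All 15 feeder genes were higher in PWK than in B6129F1, whose sums were 596 to 853 CPM, and their part in these differences was not tested. The comparisons with B6 and with PWK share libraries.

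The DBA library gave 1 value per gene and no test. It lay within the B6 range for 7 of the 9 genes. How often this held over all genes was not computed, so the count does not set these genes apart. Foxd3 was at 44.4 CPM, just above the highest B6 library at 43.5 CPM, and Sall4 was at 345 CPM, above the highest B6 library at 305 CPM. Its summed feeder genes were at 3838 CPM.

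In order of the group means, Sall2 ran from PWK through DBA and B6 to B6129F1, where PWK lay above DBA, DBA inside the B6 range, and B6 and B6129F1 overlapped. The order for Sall4 was DBA, PWK, B6 and B6129F1, where DBA lay inside the PWK range and B6129F1 overlapped B6. For Zic2 it was PWK, DBA, B6 and B6129F1, with B6 overlapping each of the others. Pou5f1 ran from PWK with 1367 CPM ± 98.7 (SD, n = 3) through B6129F1 and DBA to B6 with 1166 CPM ± 186 (SD, n = 5), and Zfp462 from B6129F1 with 255 CPM ± 29 (SD, n = 3) through B6 and DBA to PWK with 219 CPM ± 14 (SD, n = 3). The Foxd3 order was DBA, PWK with 31.8 CPM ± 6.33 (SD, n = 3), B6 with 27.7 CPM ± 12.4 (SD, n = 5) and B6129F1 with 23.2 CPM ± 9.86 (SD, n = 3), and all but DBA overlapped. Neighbours in the orders of Pou5f1 and Zfp462 overlapped or lay within the other's range. Nanog was highest in DBA at 150 CPM, with 139 CPM ± 12.9 (SD, n = 3) in PWK, 102 CPM ± 50 (SD, n = 5) in B6 and 93.1 CPM ± 17 (SD, n = 3) in B6129F1. Sox2 was highest in DBA at 78.7 CPM and lowest in PWK at 45.9 CPM ± 1.27 (SD, n = 3). Utf1 had its highest mean in B6, 192 CPM ± 55.6 (SD, n = 5), and its lowest in B6129F1, 146 CPM ± 28.6 (SD, n = 3). The B6 ranges of Nanog, Sox2 and Utf1 covered or overlapped those of every other background.

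**Figure D3:**
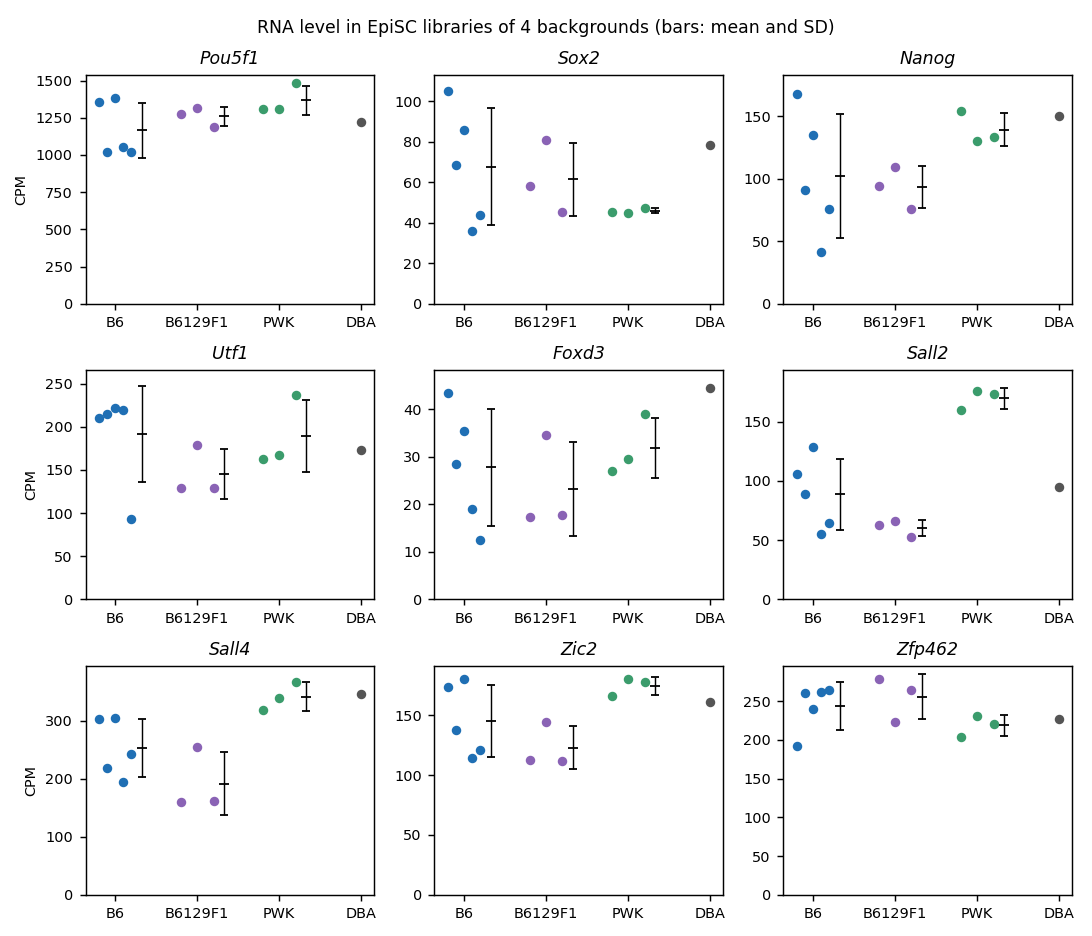
RNA level in CPM of each gene in EpiSC libraries of B6, B6129F1, PWK and DBA, each point a library and the bars the mean and SD, with the axis starting at 0. Sall2 is the gene whose 3 PWK libraries, at 160 to 176 CPM, stand above all B6 libraries and above DBA and B6129F1.

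Chromatin around the 9 genes changed in both directions on differentiation. Up to 50 kb beyond either gene end there were 166 peaks, 143 of them tested, of which 52 were lower and 37 higher in DE. This is 62.2% called, beside 57.6% of the 113870 peaks tested in all, of which 25% were lower and 32.6% higher, and 53.8% had no overlap. In the genes or within 2 kb, 43 of 48 peaks were tested, 17 were lower and 10 higher. The share of called peaks at these loci was thus near that of peaks in general, while the direction differed by gene. Of the called peaks near Sox2 7 of 9, near Utf1 10 of 13, near Foxd3 4 of 5 and near Sall2 3 of 4 were lower, and near Zic2 5 of 10. Near Sall4 7 of 10 and near Zfp462 6 of 9 were higher. Near Nanog 10 were lower and 7 higher, and near Pou5f1 7 were lower and 5 higher. The count for all 9 loci depends on the window, with 29 lower and 14 higher within 10 kb. At Foxd3 the direction depends on it too, with 4 lower and 5 higher within 120 kb. Counting only peaks whose nearest gene was the member left 16 lower and 12 higher. Peak positions are in mm10 as the authors' tables give them, and the tables do not say whether starts count from 0 or 1.

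At Pou5f1 the upstream region closed and a site inside the gene opened, while the transcript fell. The peak at chr17:35504718-35505256, from -1314 to -776 of the start and nearest to the gene model Gm32362, had 56.8, 52.1, 61.7 and 79.6 CPM in EpiSC replicates 1, 4, 44 and 51. In DE replicates 2, 4, 44 and 51 it had 8.64, 11.7, 11.3 and 4.32 CPM. All DE libraries lay far below (log2 change -2.75, SE 0.22, edgeR adjusted p = 4.58e-09). A neighbour at -2111 to -1955, named after its value was seen, also fell (log2 change -3.17, SE 0.34, edgeR adjusted p = 1.31e-07). The peak at chr17:35506947-35507419, from 915 to 1387 after the start and inside the gene, went from 3.04, 5.61, 2.81 and 2.01 CPM to 39.9, 39.3, 44.2 and 29.1 CPM. The rise was 3.43 on a log2 basis (SE 0.26, edgeR adjusted p = 1.76e-09), opposite in direction to the transcript. Within 50 kb 7 of 18 tested peaks were lower and 5 higher.

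The Sox2 promoter peak was lower in DE but kept signal in every library. The peak at chr3:34649830-34650013, which holds the ATGCAAA shown above, had 9.12, 9.62, 13 and 15.3 CPM in EpiSCs and 4.73, 6.91, 5.72 and 7.78 CPM in DE. The groups did not overlap, and the log2 value was -0.91 (SE 0.27, edgeR adjusted p = 0.00686). Away from the start, at chr3:34668594-34668757, nearest to Sox2ot, accessibility went from 7.36, 4.51, 7.40 and 9.14 CPM to 0.206, 0.329, 0 and 1.15 CPM (log2 change -4.29, SE 0.60, edgeR adjusted p = 3.16e-06), and to -5.26 on the log2 scale without DE replicate 51. The peak at chr3:34665240-34665427 was higher in DE (log2 change 1.82, SE 0.35, edgeR adjusted p = 0.000132). Farther out, and named after its value was seen, the peak at chr3:34757871-34758128 lies in the region downstream of Sox2 where its distal enhancers are known. It went from 15.8, 9.42, 10.5 and 16.1 CPM to 0.412, 0, 0.429 and 0.288 CPM (log2 change -5.43, SE 0.49, edgeR adjusted p = 1.19e-08).

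All 3 tested peaks at Nanog or within 2 kb of it were lower in DE. The promoter peak at chr6:122707400-122707597, from -89 to 108 of the start, covers the joint Oct-Sox element. It had 11, 9.11, 6.89 and 17.4 CPM in EpiSCs and 4.32, 1.32, 3.58 and 1.15 CPM in DE. The groups did not overlap (log2 change -2.06, SE 0.39, edgeR adjusted p = 0.000119). Its upstream neighbour at chr6:122707115-122707281, which also overlaps the promoter window shown above, fell by 2.17 (SE 0.36, edgeR adjusted p = 2.46e-05). The wider peak past the gene's end, chr6:122715946-122716270, had 24.7 to 37.0 CPM in EpiSCs and 6.58 to 9.87 CPM in DE, and fell by 1.83 (SE 0.21, edgeR adjusted p = 3.21e-07). Near the next gene, Slc2a3, the peak at chr6:122744909-122745161 rose from a mean of 1.32 to 18 CPM (log2 change 3.57, SE 0.36, edgeR adjusted p = 5.75e-08).

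Utf1 lost accessibility chiefly past its end. The peak at chr7:139945547-139945769, from 1691 to 1913 after the start and 435 bases past the end of the gene, had 20.8, 21.6, 19.9 and 31.1 CPM in EpiSCs and 2.06, 1.97, 1.14 and 0.577 CPM in DE. Every DE library was at most 2.06 CPM (log2 change -3.96, SE 0.31, edgeR adjusted p = 3.19e-09). The promoter peak at chr7:139943665-139943874 fell by 0.78 (SE 0.21, edgeR adjusted p = 0.00281), from 17.4 to 26.3 CPM down to 9.80 to 13.0 CPM. The start of Utf1 thus had a mean of 11.7 CPM in DE, where its transcript was 14.8-fold lower. The peak at chr7:139956070-139956193, nearest to Gm16201, was higher in DE (log2 change 3.02, SE 0.53, edgeR adjusted p = 4.2e-05).

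Foxd3 has few peaks around it, 6 within 50 kb, of which 4 were lower and 1 higher. The promoter peak at chr4:99656000-99656163 had 5.12, 3.61, 5.10 and 7.59 CPM in EpiSCs and 1.03, 0.987, 0.859 and 0.288 CPM in DE (log2 change -2.66, SE 0.47, edgeR adjusted p = 4.97e-05). It overlaps the upstream part of the sequence shown above. The wider peak at chr4:99641971-99642508, from -14328 to -13791, had 36.6, 27.1, 28.8 and 53.8 CPM in EpiSCs and 2.26, 1.32, 2.29 and 3.17 CPM in DE. There the log2 change was -4.06 (SE 0.29, edgeR adjusted p = 9.1e-10). The higher peak, chr4:99684427-99684584, went from 0.310 to 1.53 CPM up to 2.88 to 5.43 CPM (log2 change 2.52, SE 0.53, edgeR adjusted p = 0.000334). Foxd3 was the gene with transcripts at 0 in most DE libraries, and its promoter and this upstream site reached at most 1.03 and 3.17 CPM there. Not every peak at the gene closed. Of 2 tested in Foxd3 or within 2 kb, the promoter peak was lower and 1 was not called (median log2 change -1.2).

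At Sall4 the peaks inside the gene opened and the end of the gene with the higher coordinate did not change detectably. That peak, chr2:168767174-168767371, had 18.9 to 32.4 CPM in EpiSCs and 18.1 to 24.2 CPM in DE (log2 change -0.11, SE 0.19, edgeR adjusted p = 0.644). Inside the gene, chr2:168762925-168763032 rose from 0.800, 1.90, 0 and 0.775 CPM to 9.67, 10.4, 11.9 and 6.92 CPM. Accessibility changed by 3.25 in log2 (SE 0.45, edgeR adjusted p = 3.39e-06), and 3.93 without EpiSC replicate 4. The nearby chr2:168761983-168762225, named after its value was seen, at 7.40 to 10.8 CPM in EpiSCs and 19.3 to 25 CPM in DE, rose by 1.29 (SE 0.21, edgeR adjusted p = 1.86e-05). All 3 called peaks in Sall4 or within 2 kb were higher, 3 of 5 tested. The called peak with the smallest p among the lower ones, chr2:168799009-168799209, was nearest to Gm14261 (log2 change -1.99, SE 0.35, edgeR adjusted p = 4.63e-05).

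At Sall2, Zic2 and Zfp462, whose transcripts fell, peaks of both directions were called. At Sall2, 1 of 6 tested peaks in the gene or within 2 kb was called, and the peak at its downstream start, chr14:52316437-52316507, had a log2 value of -0.62 (SE 0.34, edgeR adjusted p = 0.119), or -0.84 with an adjusted p of 0.0345 under total library size. Outside the gene, chr14:52336395-52336498 fell from 2.01 to 3.68 CPM to at most 0.329 CPM (log2 change -3.80, SE 0.70, edgeR adjusted p = 6.1e-05). The higher peak near Sall2, chr14:52278916-52279074, nearest to Rab2b, had 12 to 14.6 CPM in EpiSCs and 14.7 to 21.8 CPM in DE (log2 change 0.50, SE 0.20, edgeR adjusted p = 0.0346). Its call held in 5 of 15 alternatives, and was lost under total library size (0.28, adjusted p = 0.224) and without any single library other than DE replicate 51. The peak nearest to Zic2 on its lower-coordinate side, chr14:122474988-122475207, had 13.8 to 18.6 CPM in EpiSCs and 9.06 to 15.0 CPM in DE (log2 change -0.34, SE 0.22, edgeR adjusted p = 0.198). Of 5 tested peaks in Zic2 or within 2 kb, 3 had groups without overlap, 1 called lower and 1 higher. The lower one, chr14:122474093-122474380, named after its value was seen, had 30.9 to 33.4 CPM in EpiSCs and 22.8 to 28 CPM in DE (log2 change -0.40, SE 0.15, edgeR adjusted p = 0.0238). Near Pcca, chr14:122528653-122528769 went from 1.92 to 3.87 CPM down to 0.288 to 0.859 CPM (log2 change -2.39, SE 0.54, edgeR adjusted p = 0.000563). Inside Zic2, chr14:122477428-122477523 rose from 1.44 to 2.55 CPM to 4.77 to 8.64 CPM (log2 change 1.78, SE 0.37, edgeR adjusted p = 0.000327).

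At Zfp462 the peak near the lower-coordinate end, chr4:54944945-54945199, had 8.32 to 11.5 CPM in EpiSCs and 2.68 to 8.07 CPM in DE, without overlap (log2 change -0.68, SE 0.31, edgeR adjusted p = 0.0634). Inside this long gene 4 peaks were higher and 3 lower of 10 tested. The peak at chr4:54965105-54965491 rose from 2.72, 3.81, 2.81 and 1.86 CPM to 21.2, 23.9, 27.2 and 18.7 CPM, although the transcript fell 47.2-fold. Its log2 change was 2.99 (SE 0.26, edgeR adjusted p = 1.06e-08). Farther in, chr4:55052417-55052540 fell from 2.50 to 3.68 CPM to 0 in 3 DE libraries and 0.823 CPM in replicate 4 (log2 change -3.61, SE 0.76, edgeR adjusted p = 0.000264). Without that library all DE values there were 0.

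**Figure D4:**
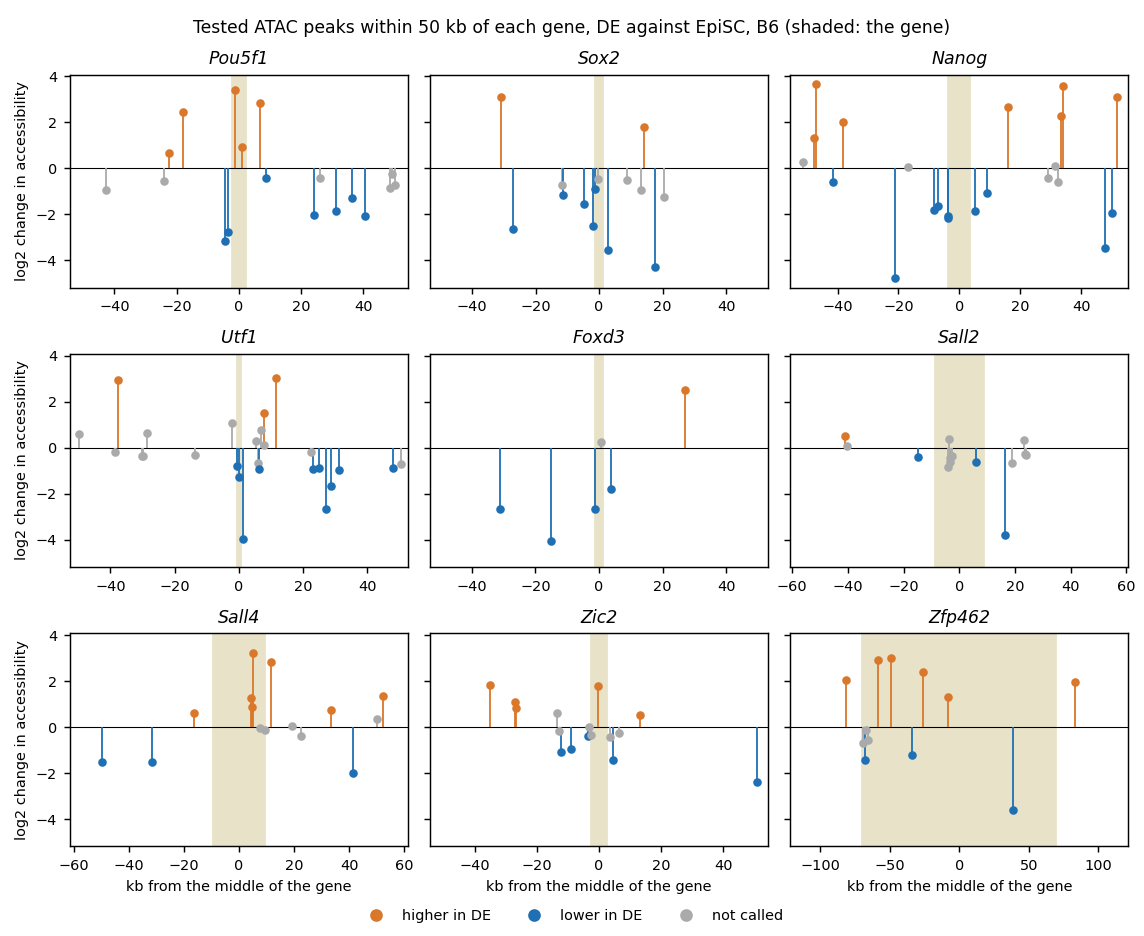
Log2 change in accessibility, DE against EpiSC, of each tested ATAC peak within 50 kb of a gene, by distance in kb from the middle of the gene along the chromosome. Shading marks the gene, and orange, blue and grey points were higher, lower or not called. Called peaks of both directions lie around every gene, with lower peaks prevailing at Sox2, Utf1 and Foxd3 and higher peaks at Sall4 and Zfp462.

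**Figure D5:**
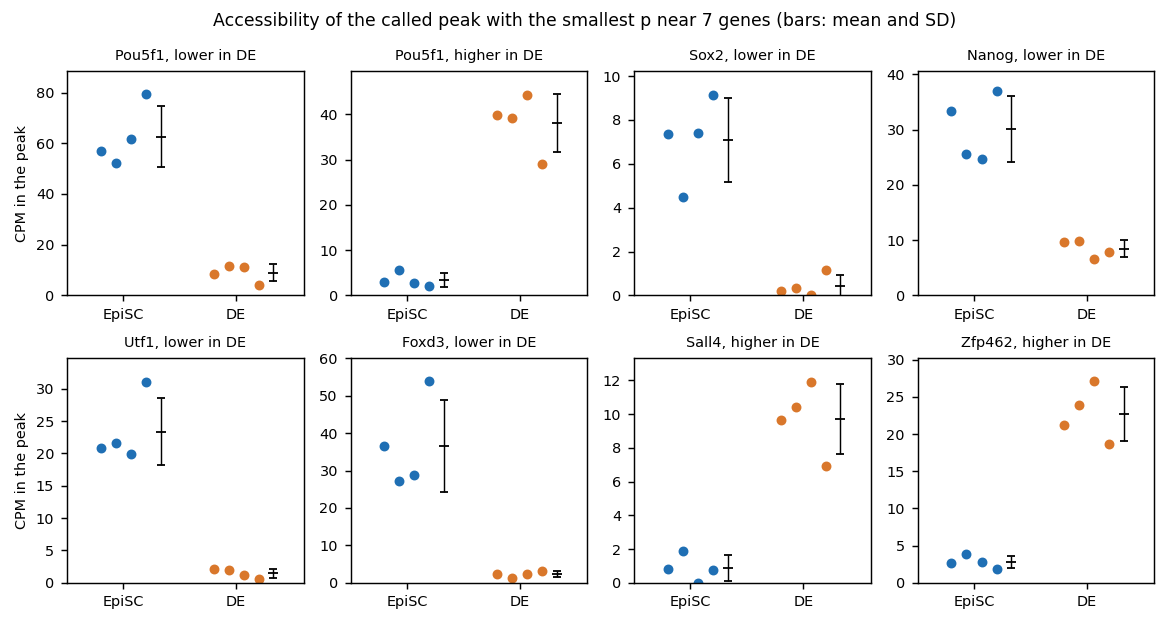
Accessibility in CPM per B6 library at the called peak with the smallest p in the direction given, with the mean and SD as bars and axes starting at 0. EpiSC and DE libraries do not overlap at any of the 8 peaks, which is no separate result since the peaks were picked by p. The Pou5f1 pair shows 52.1 to 79.6 CPM in EpiSCs upstream and 29.1 to 44.2 CPM in DE inside the gene.

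Within 50 kb of these genes few peaks were called between PWK and B6 EpiSCs, in a comparison with 2 PWK libraries. Of 189 peaks within that distance, 169 were tested, 2 were higher and 2 lower in PWK, or 2.37%, beside 5.11% of all 137667 peaks tested, 1.42% higher and 3.68% lower, and 26.3% without overlap. Of the 169 tested near the genes, 43 had no overlap. Within 10 kb of the genes edgeR called 0 peaks, and 7 had an unadjusted p under 0.05. In Foxd3 or within 2 kb, 2 peaks were tested, with a median log2 change of -1.17, 1 without overlap and 0 called. Both lower peaks lay upstream of Pou5f1 and nearest to H2-Q10. PWK reads were placed on the same build, mm10, as B6 reads. The part of sequence differences between PWK and that build in these values was not tested. The peak at chr17:35485744-35486028 had 9.92, 16.5, 11.2 and 11.3 CPM in B6 and 0.535 and 0.338 CPM in the PWK libraries (log2 change -4.82, SE 0.49, edgeR adjusted p = 4.79e-05), and 15.1 CPM in DBA. The peak at chr17:35465746-35465915, named after its value was seen, fell by 2.51 (SE 0.58, edgeR adjusted p = 0.0177). The higher peaks lay on both sides of Nanog. At chr6:122743433-122743614, nearest to Slc2a3, PWK had 15.3 and 14.2 CPM and B6 4.09 to 7.05 CPM (log2 change 1.52, SE 0.30, edgeR adjusted p = 0.00796). At chr6:122694176-122694339, nearest to Gm10420 and named after its value was seen, the log2 change was 1.85 (SE 0.51, edgeR adjusted p = 0.047). The number of higher peaks called fell to 1 without B6 EpiSC replicate 1, 4 or 51 or without either PWK library, and that of lower peaks to 1 without B6 EpiSC replicate 4. The first peak named in each direction was called in each of these fits.

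The promoter peaks of Sox2, Nanog, Utf1, Foxd3 and Pou5f1 had log2 changes from -0.41 to -0.05 between PWK and B6, and adjusted p in edgeR from 0.617 to 0.941. The Nanog promoter peak with the Oct-Sox element, chr6:122707349-122707597 in this table, was at 8.92 and 9.02 CPM in PWK, 6.86 to 17.2 CPM in B6 and 11 CPM in DBA. For Sall2, the gene with the higher transcript in PWK, the downstream start peak at chr14:52316437-52316508 was at 4.10 and 1.47 CPM in PWK and 4.32 to 6.14 CPM in B6. This gave a log2 value of -1.01 (SE 0.48, edgeR adjusted p = 0.307), opposite in sign to the transcript and not called. With 2 PWK libraries, the SE of the promoter changes was 0.22 to 0.58.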

How the data were processed

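The series holds 30 samples, 19 of RNA and 11 of ATAC-seq, and 27 were used here. The 3 samples of DE from PWK were not analysed here, since no column matched their labels. The deposited gene tables give whole-number counts for 29555 genes, and the deposited peak tables give counts for 158917 peaks (EpiSC and DE) and 181059 peaks (EpiSC). Per the submitters' processing notes, Salmon, featureCounts and DESeq2 were used for RNA, fastp, Bowtie2, MACS2, featureCounts and DESeq2 for ATAC-seq, and mm10 as the build. Their versions are not given in the sources used here. RNA was poly(A)-selected and stranded, per the labels' protocols. In the peak table of EpiSCs, 17 columns match none of these samples and were left aside. The columns of the B6 EpiSC libraries, 5 in each gene table, are identical. A PWK and a B6129F1 column of the RNA table and a PWK column of the peak table carry no replicate number and were placed by group.

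Counts were tested with the quasi-likelihood test of edgeR 4.0.16 (R 4.3.3) with TMM scaling, the default filter on low counts and robust fits. P-values were adjusted by Benjamini and Hochberg over all genes or peaks tested, and a call was an adjusted p under 0.05. RNA of EpiSC backgrounds was fitted in 1 model, and DBA, with 1 library, was left out of fits but kept in the scaling of levels. The SE is the log2 change over the square root of F. Levels are CPM on the TMM-scaled library, and since gene lengths were not used, levels were not compared between genes. Peak levels were not scaled for the width of the peak. Peaks were assigned by distance to RefSeq genes of GRCm38.p6. The script was tested on simulated data.

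The members and the lists (partners, relatives, naive, definitive endoderm, streak, neuroectoderm, visceral endoderm and feeder genes) were chosen with earlier results of these data known. Genes and peaks were named by rule. All members were named, with the 2 genes most alike to each and, for partners and relatives, at most the 2 largest called rises and falls. Peaks named were those at a start and the called peak with the smallest p in each direction within 50 kb. Exceptions are marked in the text. A gene that the rule names among the relatives is not reported here. Alternatives were RLE and total-size scaling, the filter dropped or raised to 10 counts in each library, DESeq2 1.42.0, other peak distances, only the groups compared, the replicate number as a block, and each library left out. Depth limits low values, and the floor of 3 counts covers counting error only, since reads without molecular identifiers are not independent molecules.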

Additional observations from a re-analysis of the deposited data

Results flagged for a closer look

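In 7 of 76 groups of libraries, 1 library stood apart from the others by Dixon's test at the 95% level. For independent groups of normal data chance alone gives this in about 1 in 20. Here groups share libraries, and most peaks were picked by their p, so the count cannot be set against that rate. Where all other libraries are at 0, as for Foxd3 and the Zfp462 peak below, any signal is flagged. Pou5f1 was at 37.8 CPM in DE replicate 2, and the other DE libraries had 2.46 to 6.34 CPM. Foxd3 was at 0.407 CPM in the same library, with 0 in the others. Utf1 was at 89.1 CPM in B6 EpiSC replicate 1 and at 202 to 216 CPM in the other B6 EpiSC libraries. The Utf1 promoter peak had 26.3 CPM in EpiSC replicate 51, compared with 17.4 to 18.7 CPM in the others, and, counted over the EpiSC peaks, 26.1 CPM compared with 18.3 to 18.7 CPM. These libraries are the same in both tables. The peak past the end of Utf1 had 31.1 CPM in EpiSC replicate 51 and 19.9 to 21.6 CPM in the others. The closing peak inside Zfp462 had 0.823 CPM in DE replicate 4 and 0 in the other DE libraries.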

How the results depend on the processing

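Of 954 log2 values of members and named peaks under the alternatives, 918 kept their direction and side of the threshold, among them all 142 for RNA in DE against EpiSC. Reversals were confined to changes that were not called. With total library size Utf1 in PWK against B6 was 0.04 and its promoter peak 0.03. Leaving out single libraries gave -0.23 to 0.06 for that Utf1 transcript. In B6129F1 against B6 it gave -0.39 to 0.07 for Sox2, -0.34 to 0.12 for Nanog and -0.01 to 0.16 for Zfp462. For promoter peaks in PWK it gave -0.28 to 0.02 for Pou5f1, -0.13 to 0.09 for Utf1 and -1.04 to 0.06 for a peak at a downstream start of Sall2. Members called lower in B6129F1 ranged from 0 to 1 in such fits, and DESeq2 called 2 members higher in PWK. Peaks near the members in DE, 52 lower and 37 higher, became 29 and 14 within 10 kb, 84 and 66 within 120 kb, 16 and 12 where the member was nearest, and 17 and 16 with at least 10 counts in every library. In PWK, with 2 lower and 2 higher, they became 0 and 0 within 10 kb or where the member was nearest, and 1 and 1 with at least 10 counts. Lower peaks were 4 within 120 kb, 4 with no filter and 5 in DESeq2, and single libraries left out gave 1 to 2 in each direction. Narrower windows and stricter filters hold fewer peaks, and for the other changes the cause was not tested. With at least 10 counts in every library Sox2 and Foxd3 were not tested. Total-size scaling moved the median log2 change of all peaks in DE from -0.01 to -0.22.

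Replicate numbers were shared by EpiSC and DE libraries. The correlation of deviations for the same number was 0.09 to 0.23 in RNA and -0.01 to 0.06 in ATAC-seq, and 1 pair in RNA and all in ATAC-seq were not over 0.1, so the numbers were not taken to pair the libraries. In RNA, DE replicates 2, 44 and 51 each correlated best with their own number (0.15, 0.23 and 0.20) and DE replicate 4 with EpiSC replicate 1 (0.13 against 0.09). This is a hint of pairing beside the shared numbers in the sample titles, which do not say what a shared number means. With the replicate number as a block, 8 members were lower and 1 higher, and 39 nearby peaks were lower and 30 higher; the higher peak near Sall2 had 0.38 (edgeR adjusted p = 0.244). Without the block the same libraries gave 8 and 1 members, and 43 and 31 peaks.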
